A study of Drosophila melanogaster with 16 samples.

Results

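The cytosolic ribosomal protein genes of Drosophila melanogaster were followed in RNA sequencing of dissected midguts. Members were the genes whose symbol begins with RpL, RpS or RpLP and continues with a number, plus sta, which encodes the small-subunit protein SA. The rule found 88 of the 16680 genes in the count table: 47 of the large subunit, 38 of the small subunit and 3 of the stalk (RpLP0, RpLP1 and RpLP2). Of these, 83 passed the filter on low counts and were tested, and 5 did not and are described by their reads alone.

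The samples cross sex with genotype in virgin flies, with 4 libraries per group and 30 pooled midguts per library. Controls carried the genotype w1118; mex1-GAL4 TS/+, and the other flies mex1TS > MycRNAi GD1419, a driver for enterocytes, the absorptive cells of the gut, combined with a knockdown construct against the transcription factor Myc. Both genotypes therefore carry the driver, which acts in enterocytes and not in the other cells of a midgut. The series is titled after Myc and the regional, sex-biased organisation of the fly intestine. The ages of the flies are not stated in the labels.

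Ribosomal proteins are made in near-equal amounts and assembled with ribosomal RNA into the small subunit, which decodes messenger RNA, and the large subunit, which joins amino acids. Their transcripts are among the most abundant of a growing cell, and Myc is known in flies and mammals to drive ribosome production. Several fly ribosomal proteins have a second gene copy, often one that is used mainly in the germ line, and losing 1 copy of many of the main genes gives the slow-growing flies called Minutes.

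Total counts per library ranged from 16630050 to 53586401. Myc (listed as dm) was at 60.5 to 126.5 CPM (normalised read counts, scaled to a common library size with TMM factors) in female controls and 43.7 to 83.6 in females labelled Myc RNAi. In males it was at 19.8 to 34.0 CPM in controls and 30.6 to 60.2 in the other group. The log2 fold changes were −0.59 (edgeR adjusted p = 0.0892) in females and 0.65 (edgeR adjusted p = 0.0619) in males, so with all 16 libraries and TMM factors neither passed the test, and in males Myc pointed opposite to its label. Without replicate 16 the female value of −0.59 passed (edgeR adjusted p = 0.0486) and the male value was 0.38 (edgeR adjusted p = 0.248). With library totals the female value was −0.17 (edgeR adjusted p = 0.657), and the male value of 1.09 passed (edgeR adjusted p = 0.00606). "Labelled Myc RNAi" below means the genotype as given, since the Myc level did not bear out the label in males. The white gene w, carried by many transgenes, separated the genotypes, with log2 fold changes of 4.56 and 4.29 (edgeR adjusted p = 1.89e-10 and 3.4e-10). All 6 enterocyte markers had reads in every group. Their summed level, which was not split by gene, was 2932 to 3744 CPM in female controls and 3834 to 4089 in male controls. It was 6822 to 7649 in females labelled Myc RNAi and 7699 to 10260.0 in males labelled Myc RNAi.

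Replicates 2, 5 and 16 stood apart. Replicate 16, a male library labelled Myc RNAi, held 25759 reads from 11 of 11 testis germline markers, against 12 to 34 reads in the other 3 libraries of its group, 12 to 23 in females labelled Myc RNAi and 0 to 5 in controls. Replicate 2, a female control, had every one of the 82 well-measured members above the mean of the other female controls, by a median of 0.93 on the log2 scale. Replicate 5, a male control, had all 82 above the mean of the other male controls, by a median of 0.69. On the low side the furthest was male control replicate 8, with a median of −0.56 and 0 of 82 above. Counts of called members that rest on 1 of these libraries are given with and without it.

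The plainest measure was the share of all counts that came from the 88 members. Female controls gave 13.6%, 16.7%, 11.4% and 12.7%, and male controls gave 8.60%, 6.79%, 7.68% and 6.34%. Females labelled Myc RNAi gave 7.90%, 6.13%, 8.35% and 6.80%, and males labelled Myc RNAi 5.26%, 6.17%, 5.45% and 8.64%. All 4 female controls lay above every other library, while the other 3 groups overlapped. Males labelled Myc RNAi overlapped male controls only through replicate 16, at 8.64%. Without it they ran from 5.26% to 6.17%, below the lowest male control at 6.34%. The group means were 13.6% ± 2.26, 7.35% ± 1.0, 7.30% ± 1.01 and 6.38% ± 1.56 (SD, n = 4 each) in female controls, male controls, females and males labelled Myc RNAi. Without the 50 most abundant other genes in the denominator the means were 19.0%, 11.1%, 9.14% and 8.03%, in the same order.

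**Figure D1:**
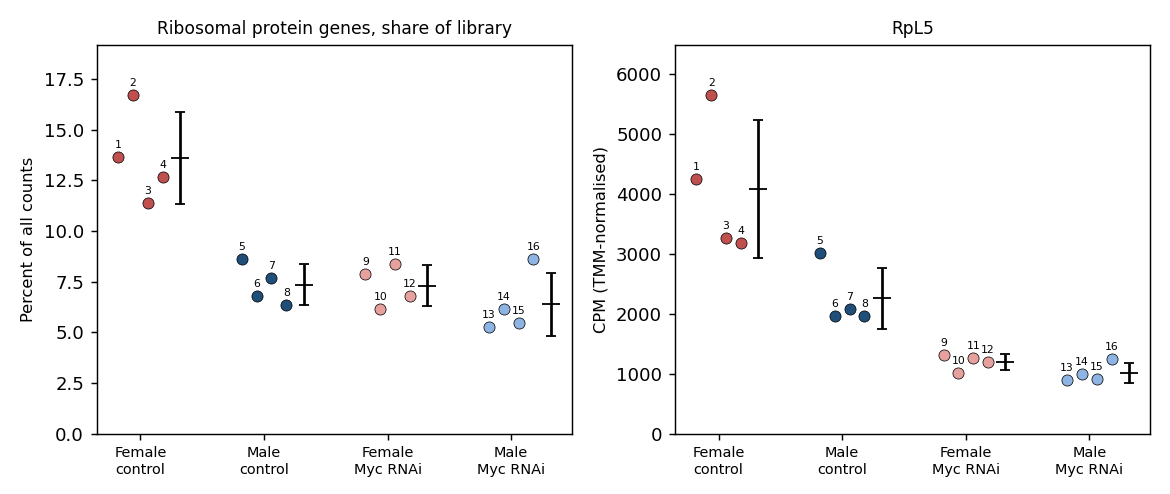
Left, percent of all counts held by the 88 ribosomal protein genes in each library; right, TMM-normalised CPM of RpL5. Points are libraries, numbered by replicate, and the black bars give the mean ± SD of the 4 libraries of a group. The 4 female controls, at 11.4% to 16.7%, lie above all other libraries on the left, and RpL5 is at 1316 CPM or less in every library labelled Myc RNAi.

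In females labelled Myc RNAi, 80 of the 83 tested members were lower than in controls, against 17.6% of all tested genes, and none was higher, against 18.5%. A gene counts as lower or higher where its edgeR quasi-likelihood p, adjusted over all 9314 tested genes, is below 0.05. The median log2 fold change of the members was −1.33, beside 0.00 over all tested genes, and the 83 values ran from −1.77 to −0.61. In 80 members all 4 libraries labelled Myc RNAi lay below all 4 controls, beside 17.8% of all tested genes. In pooled guts, fewer cells of a type and less RNA per cell cannot be told apart.

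RpL5, on chromosome 2L at 22532279 to 22536884 (minus strand, BDGP6, the sequence of dm6), had the largest fall. It is the protein that carries 5S ribosomal RNA into the large subunit together with RpL11. Female controls had 4249, 5646, 3272 and 3176 CPM of RpL5, and females labelled Myc RNAi had 1316, 1015, 1267 and 1193 CPM. The 2 sets of libraries did not overlap, and the log2 fold change was −1.77 (SE 0.20, edgeR adjusted p = 7.45e-06). RpL11, its partner, was at 1535, 2572, 1323 and 1258 CPM against 693, 524.5, 732 and 617 CPM, which as a log2 difference was −1.38 (SE 0.24, edgeR adjusted p = 0.000323).

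Next came RpS29, a small zinc-binding protein of the small subunit, at −1.73 (SE 0.30), and RpL37a at −1.71 (SE 0.30). RpL37a in the count table is the X-linked gene now named RpL37-1 and is a different gene from RpL37A. RpS2, which lines the entry channel for messenger RNA, went from 2904, 4507, 2182 and 2167 CPM among controls to 935, 741, 1110.0 and 909 CPM, which as a log2 difference was −1.67 (SE 0.24). RpL8, at the catalytic centre of the large subunit, had −1.65 (SE 0.23), and RpL3, which reaches into the same centre, had −1.64 (SE 0.21). In all 5 genes the libraries labelled Myc RNAi lay below every control. RpS29 and RpL3 overlap annotated antisense genes; whether the counting used strand is not given in the sources used here.

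Large-subunit and stalk genes had a median log2 fold change of −1.40 in females, with 47 of 48 lower. Small-subunit genes had a median of −1.29, with 33 of 35 lower. The stalk recruits elongation factors, and its RpLP0, RpLP1 and RpLP2 had −1.59 (SE 0.26), −1.55 (SE 0.30) and −1.15 (SE 0.22). RpLP2, with the smallest difference of the 3, went from 2145, 2214, 1635 and 1682 CPM among controls to 837, 643, 1193 and 788 CPM.

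Members chosen for distinct roles fell as well. RpS6, whose protein is the classic substrate of the S6 kinase, had −1.46 (SE 0.21), RpS3, which in flies also acts in DNA repair, had −1.48 (SE 0.22), and sta had −1.57 (SE 0.26). RpL40 and RpS27A, which are made as fusions to ubiquitin, had −1.43 (SE 0.31) and −1.10 (SE 0.21), and RpS30, made as a fusion to a ubiquitin-like protein, had −1.11 (SE 0.22). RpS13, one of the Minute genes, had −1.35 (SE 0.26). All of these passed the test.

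Just 3 tested members were not called in females. RpL41, the shortest ribosomal protein, had 1382, 2636, 1128 and 1248 CPM among controls and 883, 510.4, 1245 and 581 CPM in the other females. Replicate 11, at 1245 CPM, lay within the controls, and the log2 fold change was −0.99 (SE 0.40, edgeR adjusted p = 0.0639); without that library it was −1.28 (edgeR adjusted p = 0.0294). The others were the minor paralogues RpS5b (−0.64, edgeR adjusted p = 0.583) and RpS15Ab (−0.61, edgeR adjusted p = 0.0762). The count held at 78 to 82 when any single library was left out, and at 78 without replicate 2, where the median was −1.11.

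In males labelled Myc RNAi, 44 of 83 members were lower, against 17.7% of all tested genes, and 1 was higher, against 21.7%. All 44 were also lower in females. The median log2 fold change was −0.68, beside 0.05 over all tested genes. The libraries did not overlap in 17 members, beside 16.1% of all tested genes, so by that measure the share of members, unlike the share called, was close to that of other genes. That count includes replicate 16, which lay above the mean of the rest of its group in 81 of 82 members. It was not taken without that library, so it does not show how the rest of the group compares with controls.

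RpL5 again had the largest fall. Male controls had 3015, 1969, 2077 and 1967 CPM of it, and males labelled Myc RNAi had 896, 998, 910.4 and 1251 CPM, which as a log2 difference was −1.15 (SE 0.20, edgeR adjusted p = 0.000225). RpL3 was at 2681, 1780.1, 1803 and 1442 CPM against 863, 977, 866 and 1008 CPM, which as a log2 difference is −1.05 (SE 0.20, edgeR adjusted p = 0.000592). Neither gene overlapped between the groups.

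RpL23A, beside the exit of the peptide tunnel, had −0.92 (SE 0.22), and RpL22, a large-subunit protein with a long amino-terminal extension in flies, had −0.91 (SE 0.19). RpS29 had −0.99 (SE 0.30, edgeR adjusted p = 0.0147), but its libraries overlapped, because replicate 16 was at 765 CPM and the lowest control at 690.2. Stalk genes RpLP0 (−0.81) and RpLP2 (−0.60) were lower, and RpLP1 (−0.75, edgeR adjusted p = 0.0537) was not called. Of the other members named above for distinct roles, RpS3 (−0.85), RpS6 (−0.75), sta (−0.71), RpL11 (−0.68) and RpS30 (−0.62) were lower, and RpL40 (−0.69), RpS13 (−0.65) and RpS27A (−0.44) were not called.

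The male count turned on replicate 16. In that library the members lay above the mean of the other 3 by a median of 0.72 on the log2 scale, with 81 of 82 above. The excess ran from −0.03 for RpL22 to 1.55 for RpL41, which was at 426, 462 and 432 CPM in the other 3 libraries and at 1287 in replicate 16. Without it, 78 of 83 members were lower in males, against 18.4% of all tested genes, with a median of −0.90. Other single libraries moved the count both ways. It was 63 without female control replicate 2 (20.4% of all tested genes lower), 27 without replicate 14 (16.4%), 24 without male control replicate 5 (18.9%), and 21 without replicate 13 (15.7%) or 15 (15.6%). Scaling by library totals alone left 4 lower, against 8.33% of all tested genes, and left 71 of 83 members with a negative value. That scaling moved the median of all genes to 0.52 in males and 0.43 in females; the members' median, at −0.18 and −0.86, differed from it by −0.70 and −1.29, beside −0.72 and −1.33 with TMM factors.

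Transcript length was related to the male values. Across 82 members the log2 fold change in males had Pearson's r of −0.65 and Spearman's rho of −0.61 with the median annotated transcript length, and r fell to −0.28 without replicate 16. The members share the same libraries, so these are descriptions across genes. Among the 27 shortest (288 to 635 nt) 10 were lower, among the 27 of middle length 9, and among the 28 longest (805 to 1512 nt) 25. Without replicate 16 these counts were 24, 26 and 28. In females r with length was −0.41, and 26, 26 and 28 members were lower. An offset for the length trend in each library, an alternative chosen after seeing the data, gave 79 lower members in males and 82 in females, against 22.4% and 21.8% of all tested genes.

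**Figure D2:**
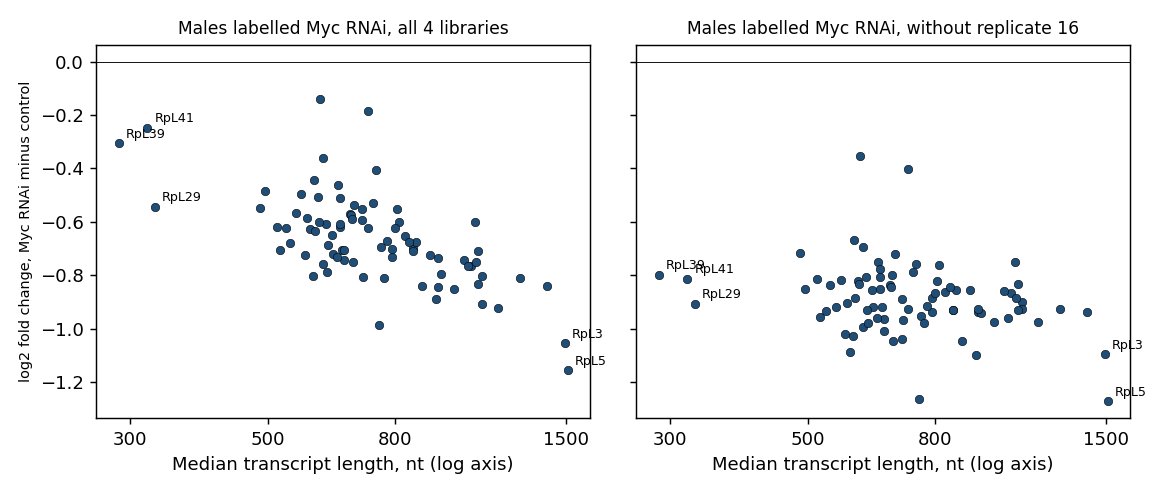
Log2 fold change of 82 members in males labelled Myc RNAi against their median annotated transcript length in nt (log axis), with all 4 libraries (left) and without replicate 16 (right). Each point is a gene; on the left the shortest, RpL39 and RpL41, lie at −0.30 and −0.25, and on the right RpL41 lies at −0.81.

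Every one of the 82 members other than RpS5b had a more negative value in females than in males. The values of the sexes, which come from separate libraries, had Pearson's r of 0.71 and Spearman's rho of 0.62 across these genes (0.70 and 0.57 without replicate 16), as a description. The difference between the sexes did not pass the test for any member. The interaction, female effect minus male effect, was called for 0 of 83 members by edgeR, DESeq2 and limma voom, against 1.07% of all tested genes by edgeR. By DESeq2 1.95% of all tested genes were called higher and 0.655% lower, and by limma voom 0.902% and 0.193%. With shares this small, a count of 0 says little about the members. An unadjusted edgeR p below 0.05 was found for 24 members, beside 11.9% of all tested genes. The median interaction was −0.70, and it moved to −0.39 without replicate 2 and to −0.46 without replicate 16. For RpL5 it was −0.61 (SE 0.28, edgeR adjusted p = 0.399), so a larger fall in females was neither shown nor shown to be lacking.

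**Figure D3:**
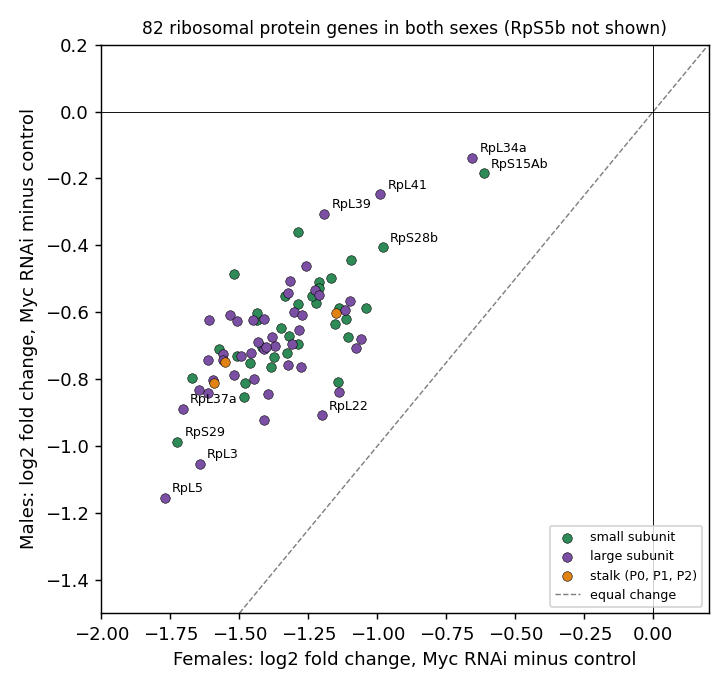
Log2 fold change (Myc RNAi minus control) of 82 members in females (horizontal) and males (vertical), coloured by subunit; the dashed line marks an equal change. All points lie above the line, from RpL5 at −1.77 and −1.15 to RpL34a at −0.66 and −0.14.

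Among controls, 50 of 83 members were higher in females than in males, against 5.02% of all tested genes, and none was lower, against 5.27%. The median log2 difference was 0.84, beside −0.01 over all tested genes, and all 83 values were above 0. The female libraries lay wholly above the male libraries in 47 members, beside 7.24% of all tested genes.

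RpS21, a small-subunit protein, had the largest called difference, at 1.12 (SE 0.32, edgeR adjusted p = 0.0339). Female controls had 914, 1755, 734 and 723 CPM of it and male controls 683, 426, 453 and 332 CPM, without overlap. RpS12, which flies use in sensing cells with too few ribosomal proteins, had 1.07 (SE 0.30), RpS2 1.06 (SE 0.24), RpL37a 1.04 (SE 0.29) and RpL32, a common reference gene in fly work, 1.03 (SE 0.29). The 15 X-linked members had a median of 0.72 with 5 called, and the other 68 a median of 0.86 with 45 called; this difference was not tested.

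The number of members called between control sexes rested on single libraries. Without replicate 2 there were 5 called, against 2.81% of all tested genes, with a median of 0.56 and 2 members below 0. The count was 24 without female replicate 1, 5 without male replicate 6, 13 without replicate 7 and 6 without replicate 8, against 3.16%, 2.74%, 3.48% and 2.89% of all tested genes. It was 4 in a fit of the control libraries alone, against 2.8%. In the settings with 4 to 6 called, the share called came nearer that of other genes, but the members' median stayed above theirs. The members' median was 0.86 in the fit of controls alone, 0.80 without replicate 6 and 0.72 without replicate 8. Over all tested genes the medians in these fits were 0.007, −0.009 and 0.005. The count was 70 without male replicate 5, against 4.79%. It was 71 without replicate 16, 71 with DESeq2 and 75 with library totals, against 6.7%, 6.74% and 5.34% of all tested genes. Markers of the fat body, a tissue next to the gut, summed to 86.7 to 249 CPM in female controls and 5.2 to 24.4 in male controls, with 8 of 9 and 9 of 9 genes above 0. That list holds the yolk protein genes Yp1, Yp2 and Yp3, and the sum was not split by gene. A difference between the sexes in it therefore does not measure fat body tissue alone. Malpighian tubule markers went the other way, at 36.9 to 55.6 and 94.7 to 139.5 CPM with 3 of 3 genes above 0; their part in the sex difference was not tested.

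Between the sexes labelled Myc RNAi no member was higher in females, against 2.85% of all tested genes, and 1, RpS5b, was lower, against 2.72%. An unadjusted edgeR p below 0.05 was found for RpS5b alone, beside 18.9% of all tested genes, and DESeq2 called no member, against 4.37% of all tested genes higher and 4.14% lower. The median difference was 0.15 (0.38 without replicate 16), and RpL5 had 0.24 (SE 0.20, edgeR adjusted p = 0.592). The comparisons between sexes and between genotypes share libraries, so their values are not independent of each other.

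Within a group, members moved together from library to library. After group means were removed, each member's log2 CPM had a median Pearson's r of 0.974 with the mean of the other members over 16 libraries, and 72 of 82 had r above 0.9. RpL22 was the least alike, at 0.654. It was at 330.3, 328, 578 and 374 CPM in females labelled Myc RNAi, where replicate 11 was high, and at 325, 338, 309 and 317 CPM in males, where replicate 16 was not. Control replicates 2 and 5 were high in all 82 members, by a median of 0.93 and 0.69 on the log2 scale. These correlations come from shared libraries and describe that sharing.

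**Figure D4:**
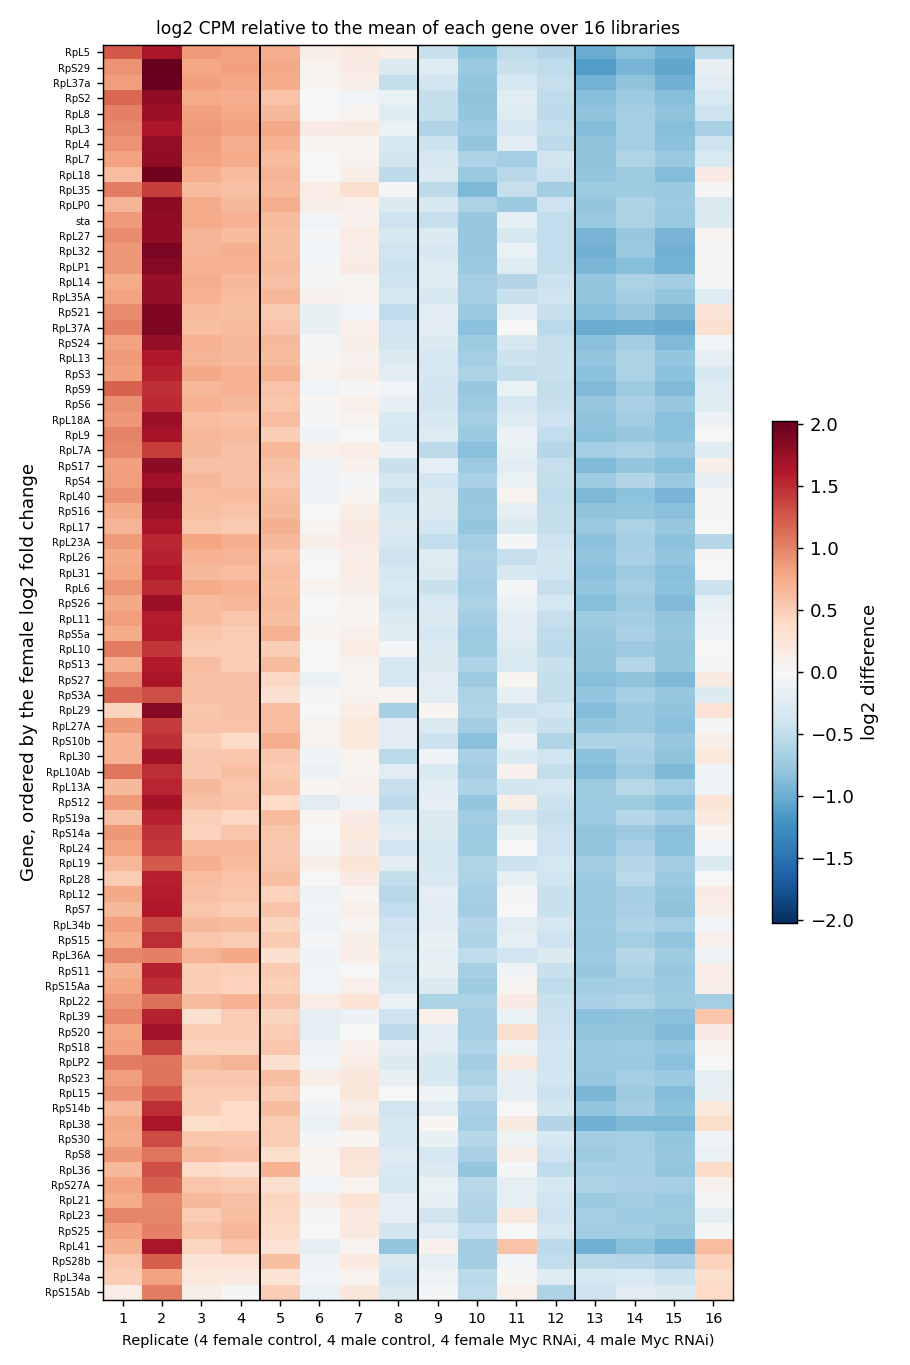
Log2 CPM of 82 members (rows, ordered by the female log2 fold change) in 16 libraries (columns), each relative to the mean of that gene over all libraries; red is higher and blue lower. Columns 2, 5 and 16 stand above the other libraries of their groups across nearly all rows.

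Levels per kilobase of transcript were alike for most members. In female controls the median was 2568 CPM per kb, and RpL41 (4995), RpLP1 (4553) and RpL27A (4320) were the highest. RpS15Ab (26.5), RpL34a (324) and RpS14b (487) were the lowest after RpS5b, all of them minor copies of another member. The median was 1408 in male controls, 978 in females labelled Myc RNAi and 897 in males labelled Myc RNAi.

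The copies of the RpL34 and RpS15A pairs changed by different amounts. RpL34a and RpL34b, both on chromosome 3R (26058420 to 26059267 and 9400237 to 9401226), encode copies of one large-subunit protein, and their shares of the pair's reads do not depend on scaling. In female controls RpL34a held 15.2%, 13.5%, 14.1% and 14.1% of the reads of the pair, and in male controls it held 16.6%, 18.6%, 18.4% and 18.6%. It held 19.4%, 18.8%, 21.0% and 19.2% in females labelled Myc RNAi and 22.8%, 21.8%, 21.2% and 23.0% in males labelled Myc RNAi. The 4 groups did not overlap, and their order was female control, male control, female and male labelled Myc RNAi. The gap between the second and the third, from 18.6% to 18.8%, was within the counting intervals of single libraries. So was the gap between the third and the fourth, from 21.0% in replicate 11 (interval 20.6% to 21.4%) to 21.2% in replicate 15 (20.5% to 21.8%). Each share rested on 10661 to 43362 reads, and the 95% Clopper-Pearson intervals, which cover counting error only, were 13.2% to 13.8% in replicate 2 and 22.6% to 23.4% in replicate 16.

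The main copy RpL34b had log2 fold changes of −1.23 (SE 0.21, edgeR adjusted p = 0.00026) in females and −0.53 (SE 0.21, edgeR adjusted p = 0.0522) in males. RpL34a had −0.66 (SE 0.20, edgeR adjusted p = 0.0178) and −0.14 (SE 0.20, edgeR adjusted p = 0.631). Its female call was lost without replicate 2 (−0.55, edgeR adjusted p = 0.0542) and with library totals (−0.20, edgeR adjusted p = 0.346), and with library totals its male value turned to 0.36.

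RpS15Aa and RpS15Ab differed in the same sense. RpS15Ab, on chromosome 2R, held 1.13% to 1.36% of the pair's reads in female controls and 1.66% to 1.90% in male controls. It held 1.64% to 2.10% in females and 2.12% to 2.43% in males labelled Myc RNAi. Within each sex the genotypes did not overlap, while male controls overlapped females labelled Myc RNAi. RpS15Aa had −1.21 (SE 0.27, edgeR adjusted p = 0.00195) in females, and RpS15Ab, at −0.61, was not called.

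RpS14a and RpS14b lie side by side on the X chromosome (7933742 to 7934677 and 7934898 to 7935792) and are near-identical, so reads could have been split between them and their shares are uncertain. RpS14b held 19.5% ± 1.30, 19.5% ± 1.24, 21.2% ± 0.438 and 20.8% ± 0.928 of the pair's reads (SD, n = 4) in the groups in the same order. The copies had −1.29 (SE 0.25) and −1.14 (SE 0.29) in females, both called.

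RpS5a, the main copy in the body, and RpS5b, known in flies as an ovary-enriched copy, were far apart in level. Female controls had 2126, 3818, 1854 and 1804 CPM of RpS5a, and females labelled Myc RNAi had 998, 758, 1072 and 878 CPM, which as a log2 difference was −1.37 (SE 0.26, edgeR adjusted p = 0.000548). In males it had −0.73 (SE 0.26, edgeR adjusted p = 0.031). RpS5b had 5 to 44 reads in 15 libraries and 427 in replicate 16, with no value elsewhere above 0.82 CPM. Its called rise in males (2.14, SE 0.75, edgeR adjusted p = 0.0329) was 0.13 without replicate 16 (edgeR adjusted p = 0.846), and its call between the sexes labelled Myc RNAi went from −2.73 (edgeR adjusted p = 0.0498) to −0.71 (edgeR adjusted p = 0.364).

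The 5 members that were not tested followed the same library. RpL10Aa had 692 reads in replicate 16 and 1 in the other 15 libraries together, RpS19b 400 and 22, RpS10a 245 and 7, RpL37b (now RpL37-2) 230 and 3, and RpS28a 25 and 0. Among related genes outside the rule, RpL22-like had 465 reads in replicate 16, RpS28-like 74 and RpL7-like 1, and none of the 3 had a read elsewhere. Replicate 16 is also the library with the testis marker reads. The main copies RpL10Ab, RpS19a, RpS10b, RpL37a and RpS28b were lower in females, at −1.31, −1.29, −1.32, −1.71 and −0.98.

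**Figure D5:**
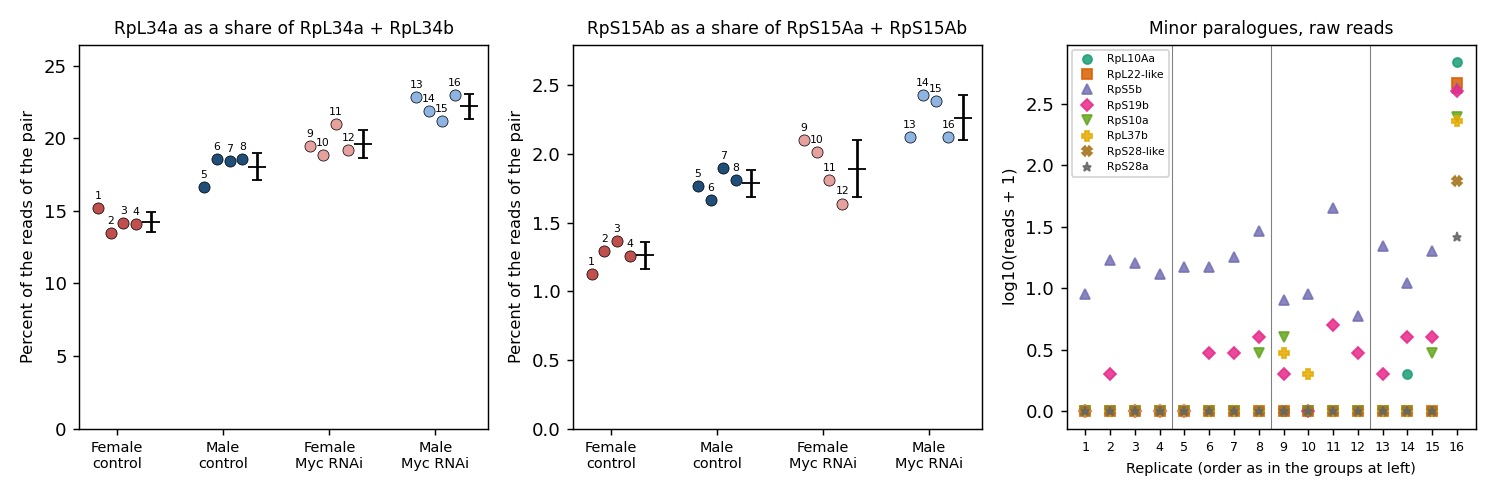
Left and centre, RpL34a and RpS15Ab as percent of the reads of their pair in each library, with mean ± SD of 4 libraries; right, raw reads of 8 minor paralogues on a log10(reads + 1) scale. RpL34a shares do not overlap between the 4 groups, from 13.5% to 23.0%, and the reads of the minor paralogues at right stand highest in replicate 16.

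Related gene lists were counted beside the members. Of 10 genes for ribosome-associated proteins and translation elongation, 9 were lower in females (median −1.10) and 7 in males (median −0.62), and 5 were higher in control females. The shares of all tested genes were 17.6%, 17.7% and 5.02%. Among the 9 was eEF1alpha2 (−1.185, edgeR adjusted p = 0.0488), at only 0.29 to 1.66 CPM in the female libraries, where the genotypes overlapped. The gene not called in females, eEF1delta, had −0.24 (edgeR adjusted p = 0.576), and in males 0.11 (edgeR adjusted p = 0.804). Rack1, a scaffold protein bound to the small subunit, had −1.64 (SE 0.29, edgeR adjusted p = 0.000295) in females and −0.79 (SE 0.28, edgeR adjusted p = 0.0353) in males. Tctp, a growth-related protein, had −1.38 (SE 0.20) and −0.99 (SE 0.20), and eEF2, which moves the ribosome along messenger RNA, had −1.09 (SE 0.18) and −0.69 (SE 0.18). With library totals 8 of the 10 were lower in females and 1 in males, against 7.21% and 8.33% of all tested genes. Without replicate 2 there was 1 higher in control females, against 2.81%.

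Mitochondrial ribosomal proteins, which build the separate ribosome of that organelle, did not follow in the comparisons of genotypes. Of 72 tested, 2 were lower and 1 higher in females (median −0.10), against 17.6% and 18.5% of all tested genes. In males 11 were higher (median 0.23), or 5 (median 0.07) without replicate 16. The shares of all tested genes were 21.7% and 21.1%, so the male counts were not above those of other genes. None was lower in males, against 17.7% of all tested genes, and 63 of 72 values were above 0. Without replicate 16 none was lower either, against 18.4%, and 26 of 72 values were below 0. With library totals 28 were higher in females and 66 in males, against 37.4% and 47.9% of all tested genes. The female count was close to that of other genes, and the male count was above it. With both scalings their median lay above that of the cytosolic members. Between the control sexes 10 were higher in females and none was lower (median 0.38, with 3 of 72 below 0), against 5.02% and 5.27% of all tested genes. Without replicate 2 there were 3 higher (median 0.17), against 2.81%, so that count was near that of other genes. The interaction had a median of −0.34, with 71 of 72 values below 0 and none called. RpL24-like, a relative of RpL24 known in yeast to act in ribosome assembly, had −1.42 (SE 0.15, edgeR adjusted p = 3.79e-06) in females and −0.77 (SE 0.15, edgeR adjusted p = 0.0006) in males. RpLP0-like, a relative of RpLP0, was not called in either sex. It had −0.33 (SE 0.29, edgeR adjusted p = 0.422) in females and 0.16 (SE 0.29, edgeR adjusted p = 0.711) in males.

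Among 15 regulators of ribosomal protein genes, 2 were higher and 2 lower in females, and 2 and 3 in males. Among all tested genes 18.5% were higher and 17.6% lower in females, and 21.7% and 17.7% in males, so the counts say nothing particular of this list. Trf2, a TBP-related factor that acts at fly ribosomal protein promoters, had 45.0 ± 9.76 CPM in control females and 117.8 ± 16.3 CPM in the others (n = 4, 1.39 on the log2 scale, SE 0.18, edgeR adjusted p = 2.72e-05). In males it went from 46.6 ± 8.27 to 155 ± 26.1 CPM (log2 difference 1.74, SE 0.19, edgeR adjusted p = 1.9e-06, n = 4). The kinase S6k was lower in both sexes (−0.67 and −0.48, edgeR adjusted p = 0.000408 and 0.00449), and so was larp, which binds messenger RNAs of ribosomal proteins in mammals (−0.64 and −0.90, edgeR adjusted p = 0.021 and 0.00215). With library totals none of the 15 was lower in either sex, and the calls of S6k and larp were lost (edgeR adjusted p of 0.215 and 0.96 for S6k, and 0.437 and 0.118 for larp, in females and males).

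Marker levels moved with genotype as well. Beside the enterocyte markers given above, 6 of 6 stem cell and enteroblast markers had reads, with summed levels of 50.2 to 120.2 CPM in female controls and 151.9 to 216 in females labelled Myc RNAi. In males the levels were 70.1 to 117.1 and 163.5 to 259.9 CPM. Enteroendocrine markers, with 8 of 8 above 0, summed to 422 to 522 CPM in female controls and 339 to 411 CPM in females labelled Myc RNAi, and the ranges of the male groups overlapped. Malpighian tubule markers in males went from 94.7 to 139.5 CPM among controls to 25.6 to 53.6 CPM, and the female ranges overlapped. None of these sums was split by gene, so a single abundant marker could carry a difference. The part of these cell types in the lower levels of ribosomal protein genes was not tested.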

How the data were processed

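The authors deposited raw read counts by gene symbol for the 16 libraries, with no scaling. TopHat2 2.0.11, featureCounts and the dm6 build are named per the submitters' processing notes; per the labels' protocols, RNA was poly(A)-selected and libraries were made with a directional kit. The annotation, the use of strand and the treatment of multi-mapping reads were not given in the sources used here, so near-identical or overlapping genes are uncertain: 23 members overlap exons of a gene on the other strand, 8 of one on the same strand, and 29 hold small RNA genes. Of 16680 symbols, 12504 were current and 4058 were synonyms in the reference tables; 118 were found in neither. Positions are 1-based, from the Ensembl BDGP6 annotation. Columns of other samples in the table numbered 0.

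Genes were filtered with edgeR's filterByExpr (9314 left), scaled with TMM and tested with edgeR 4.0.16 (quasi-likelihood, R 4.3.3) on all 16 libraries with 1 mean per group, for 5 comparisons: genotype within each sex, sex within each genotype, and their interaction. P-values were adjusted by Benjamini-Hochberg over all tested genes; SE come from the estimate and the F statistic. DESeq2 1.42.0 and limma 3.58.1 (voom) were alternatives, with other scalings, filters, groups fitted alone, each library left out and an offset for transcript length, the last chosen after seeing the data. The steps were tested on simulated data. In all 24 replicate pairs the counts differed beyond counting error, with chi-square over its degrees of freedom between 25.8 and 326. Each library is a pool, so p-values measure the spread between pools, within the range of total counts from 16630050 to 53586401.

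Named genes were the 5 called members with the lowest and the 5 with the highest value per comparison, paralogue pairs, members with distinct roles, members not called in females, and Myc and w. RpL41, RpL39 and RpL22 in the accounts of length and of single libraries, and RpL27A, were chosen after their values were seen. So were the genes named from the related lists and the values of RpL24-like and RpLP0-like. Members, lists and tests were chosen with earlier results of these data known. Sequences and promoter motifs were not analysed here.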

Additional observations from a re-analysis of the deposited data

Results flagged for a closer look

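Within groups of 4 libraries, 164 sets of values were examined for a sample whose gap to its nearest neighbour exceeded Dixon's 95% critical share of the whole range, and 40 were found; chance gives about 1 in 20. The sets are not independent, because members of a library moved together.

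Female control replicate 2 exceeded that critical share, as the highest of its group, in 16 of the sets examined. In these it held sta at 6742 CPM, RpLP0 at 5221, RpLP1 at 5171, RpL3 at 4906, RpL23A at 4790 (4789.6), RpL7 at 4122, RpS5a at 3818 and RpL37a at 3680 (3679.8) CPM. It also held RpS29 at 3460.5 CPM, RpS3 at 3403, RpS19a at 2946, RpL32 at 2832, RpL41 at 2636 (2635.5), RpS13 at 2508, RpL24 at 2230 (2229.9) and RpS15Ab at 30.0 CPM. In male control replicate 5, RpL5 at 3015 CPM and RpS2 at 1933 CPM were the highest of the group, and the RpL34a share of its pair, at 16.6%, was the lowest.

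Replicate 16, of the males labelled Myc RNAi, exceeded it as the highest of its group in 21 sets. Among large-subunit and stalk genes it held RpLP1 at 1451 CPM, RpL41 at 1287, RpL10Ab at 1170 (1169.7), RpLP2 at 1035, RpL40 at 916, RpL11 at 783, RpL34b at 615 and RpL34a at 184 CPM. Among small-subunit genes it held RpS27A at 1199 CPM, RpS28b at 1190.0, RpS5a at 1188, RpS19a at 1137, RpS10b at 1124, RpS12 at 960.4, RpS15Aa at 898, RpS29 at 765, RpS30 at 739, RpS14a at 640 (639.6), RpS21 at 565, RpS14b at 182 and RpS5b at 8.28 CPM. This is the library with 25759 testis marker reads; their part in these values was not tested.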

How the results depend on the processing

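No paired analysis was possible because the replicate numbers, 1 to 16, are unique to each library. Female counts of lower members stayed between 76 and 82 over all settings. Single values were followed for the named members only, 185 in all, and not for all 83 tested members. No called value among them reversed. Of the 4583 alternative values of these named members, 4193 kept direction and call, 270 lost the call and 94 gained it. The other 26 changed sign without being called in either setting. The cause was not tested. Named members that changed sign in males with library totals were RpS21 (0.022), RpS12 (0.143), RpS15Ab (0.311), RpS28b (0.094), RpL34a (0.355), RpS27A (0.05) and RpL41 (0.253). Over all 83 members, 82 male values were below 0 with TMM factors and 71 with library totals. Between control sexes RpS5b was −0.051 with the length offset, and with 1 library left out it ran from −0.088 to 0.169 and RpS15Ab from −0.032 to 0.457. Between the sexes labelled Myc RNAi, RpS19a was 0.017 with limma voom. With 1 library left out it ran from −0.131 to 0.231, RpS21 from −0.027 to 0.457, RpS12 from −0.021 to 0.475, RpS10b from −0.186 to 0.195, RpS15Aa from −0.044 to 0.375, RpS15Ab from −0.27 to 0.082, RpS28b from −0.197 to 0.264, RpL34a from −0.143 to 0.156 and RpLP0 from −0.001 to 0.191. In males the 44 lower members became 4 with library totals, 79 with the length offset and 21 to 78 with 1 library left out; the cause was not tested. The 1 higher male member, RpS5b, became 0 with DESeq2, limma voom or only the groups compared, and 0 to 1 with 1 library left out. A 1 CPM filter removed RpS5b, so that setting does not test it. The 50 members higher in control females became 19 without a filter, against 2.11% of all genes tested in that setting. They became 4 with only the groups compared, against 2.8%, and 5 to 71 with 1 library left out. The 1 lower member between sexes labelled Myc RNAi became 0 with library totals, no filter, DESeq2, limma voom or only the groups compared. It became 0 to 1 with 1 library left out. That member is also RpS5b, which the 1 CPM filter left untested. Per kilobase, the RpL34a share was 15.8%, 19.998%, 21.7% and 24.5% and the RpS14b share 24.1%, 24.2%, 26.2% and 25.6% (female control, male control, female and male labelled Myc RNAi), which follows from the copies' lengths. Without the 50 most abundant other genes the family share was 19.0%, 11.1%, 9.14% and 8.03%, which follows from the smaller denominator. The interaction could not be fitted with only the groups compared. Minor paralogues with under 50 reads, such as RpS5b, limit what depth can show.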
